A study of Tribolium castaneum with 8 samples.

Results

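Whole adults of the red flour beetle Tribolium castaneum were set against whole embryos by the RNA of each, 1 RNA sequencing library a stage. Both libraries came from strain GA-1, reared on whole wheat flour with yeast at 30 °C, and the labels give an age of 3 days for the adults and of 3 days for the embryos. Neither stage carried an allele or received an agent in the labels. A pool of 50 individuals is stated for the DNA of the series only, so how many animals, and of which sex, stand behind each RNA library is not stated there. These are 2 of the 8 samples of the series: larval (20 days) and pupal (3 days) RNA libraries are used below only for their levels of the same genes, and 4 bisulfite libraries were not analysed here. Of 14422 genes listed in at least 1 of the 4 RNA libraries, the 12878 with at least 1 RPKM (reads per kilobase of gene model, scaled to the total reads of the library) in the adult or the embryo library were compared and are called tested genes below, although no statistical test was possible. Gene names are the nearest described matches that the deposited files give, and a name may be wrong for a single gene.

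A beetle embryo lays down segments, appendages, nerve cord and gut under a cascade of patterning genes, with Hox genes giving each segment its identity, and then secretes the cuticle of the larva that hatches. The adult that emerges after larval feeding and metamorphosis has compound eyes, antennae, flight muscle, a feeding gut and gonads. RNA of a whole body is the sum over all these tissues. In such bulk samples a lower level from fewer cells of a type and one from less RNA per cell cannot be told apart.

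The adult library held 3.09 M unique reads and the embryo library 3.24 M. Genes were listed as 13420 in the adult and 12667 in the embryo, with a median of 71 reads per listed gene in the adult and 90 in the embryo. The 20 most abundant genes took 14% of the adult reads, against 6.65% of the embryo reads. With 1 library a stage there was no replicate check and no test: differences below are between these libraries, and ratios of RPKM carry exact binomial 95% intervals that cover counting error only, since PCR reads without molecular identifiers are not independent molecules. Where a library had 0 reads of a gene, the fold is a lower bound against a floor of 3 reads in that library.

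Genes were counted as higher or lower in the adult from 2-fold on, on the scale log2((RPKM adult + 1) / (RPKM embryo + 1)), which understates differences of weakly expressed genes. In the adult library 3232 genes (25.1%) were higher and 3278 (25.5%) were lower. The larger differences lay mostly on the adult side, with 1891 genes (14.7%) higher and 921 (7.15%) lower by 4-fold or more, and 768 (5.96%) higher and 157 (1.22%) lower by 16-fold or more. At 10 RPKM or more, 355 adult genes had 0 embryo reads, and 47 embryo genes had 0 adult reads. The median over all genes was -0.30. Median-ratio rescaling added 0.37 to every log2 ratio of RPKM, and with it 3780 genes were higher and 2114 lower, so that 64.1% of the called genes were higher, against 49.6% with the totals as deposited. The share was 55.5% when the totals were taken without the 20 most abundant genes of either library. For that reason the medians of gene lists are given relative to the median of all genes, save where stated or given for another setting. A list of genes, matched by words in the names, is described by its counts beside 25.1% higher and 25.5% lower over all genes. A word can match an unrelated gene, and for 15 lists the counts without such genes, picked out after their values were seen, stand beside the matched ones.

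**Figure D1:**
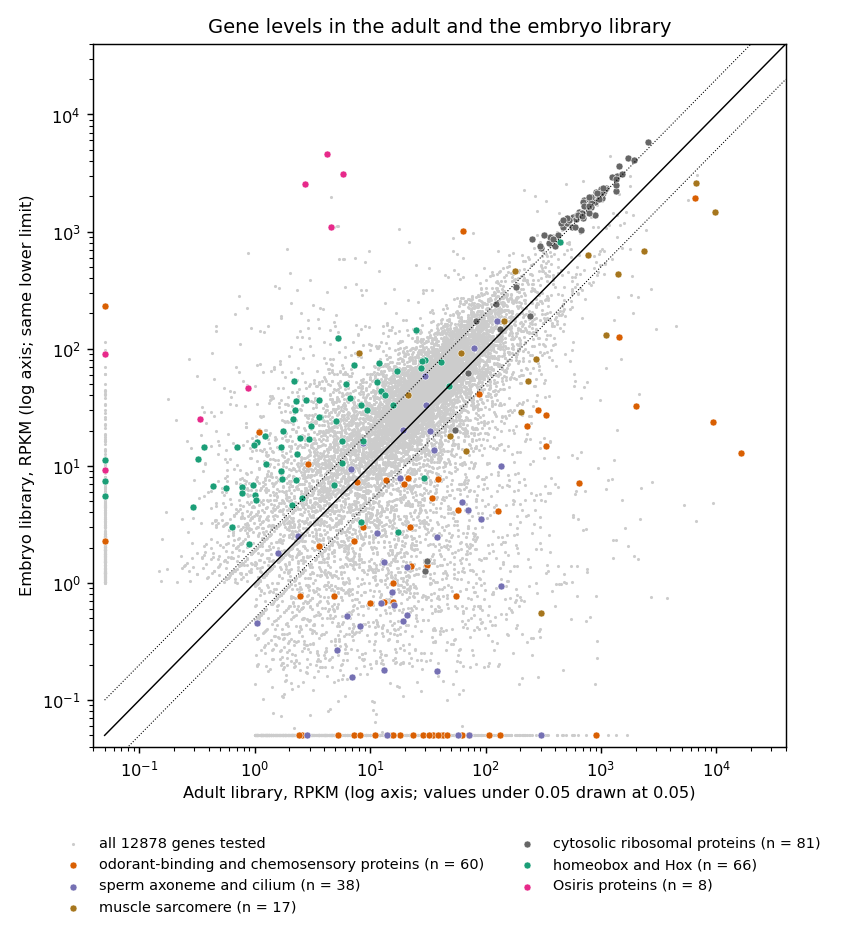
RPKM in the adult library (horizontal, log axis) and in the embryo library (vertical, log axis) of the 12878 genes compared, each point 1 gene, with members of 6 gene lists, as matched by words in the names, in colour. The solid line marks equal levels and the dotted lines 2-fold; the 8 Osiris genes lie above the lines at the left, and most odorant-binding and chemosensory proteins lie below them at the right.

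A gene named as a chemosensory protein had the highest RPKM of the adult library. Odorant-binding and chemosensory proteins are small secreted carriers, and many of those made in antennae bring odour molecules to receptors. In which tissue they were made, and whether they serve smell or taste, was not tested here. Of 60 tested members of the list (64 in all), 51 were higher in the adult and 5 were lower, with a median of 3.62 relative to all genes. Chemosensory protein 11 (TC008681) was at 16387 RPKM in the adult and 12.8 RPKM in the embryo, a ratio of 1276 (786 to 2233). Odorant binding protein C11 (TC011410) was at 9274 RPKM in the adult and 23.8 RPKM in the embryo, and odorant binding protein C17 (TC008162) was at 901 RPKM in the adult with 0 reads in the embryo, at least 380.2-fold higher. C17 was low in the stages between as well, at 0.717 RPKM in the larva and 0.698 RPKM in the pupa. Other carriers were higher in the embryo than in the adult. Chemosensory protein 2 (TC003085) had 0 reads in the adult and 231 RPKM in the embryo. Chemosensory protein 7 (TC014534) was at 63.3 RPKM in the adult and 1004 RPKM in the embryo, 15.9-fold lower (12.6 to 20.3). Its levels between were 384 RPKM in the larva and 208 RPKM in the pupa. The level of the subfamily minus-C protein C04 (TC008757), at 6498 RPKM in the adult and 1955 RPKM in the embryo, was higher still in the larva, at 9608 RPKM, and 13 of the 51 genes higher in the adult were higher again in the larva.

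The odorant and gustatory receptors themselves were weakly expressed in whole bodies. Of 262 listed receptors only 41 reached 1 RPKM in either library, and the highest receptor level was 9.73 RPKM in the adult and 21.8 RPKM in the embryo. Of the 41, 20 were higher in the adult, 13 of them with 0 embryo reads, and 8 were lower. The gustatory receptor TC030146 was at 8.64 RPKM in the adult and 21.8 RPKM in the embryo, 2.52-fold lower (1.59 to 4.13). At a minimum of 5 RPKM 10 receptors were left, and their median turned to -1.15, so the direction of this list rests on genes with few reads.

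Most photoreception genes were higher in the adult. Of 9 genes matched as photoreception genes 6 were higher and 1 was lower, with a median of 2.81 relative to all genes; 1 of the uncalled members is a serine protease, which leaves 8. The rhodopsin TC013765, the light receptor of photoreceptor cells, was at 137 RPKM in the adult and 0.542 RPKM in the embryo (2 reads), a ratio of 253 (69.6 to 2094). Arrestin 2 (TC009551), which ends the signal of activated rhodopsin, was at 295 RPKM in the adult and 16.1 RPKM in the embryo, a ratio of 18.3 (14.2 to 23.9), and arrestin 1 (TC013804) was at 49.7 RPKM in the adult and 7.07 RPKM in the embryo. The c-opsin TC007259, of the ciliary type of opsin, was at 29.7 RPKM in the adult and 12.7 RPKM in the embryo, and at 45.6 RPKM in the pupa. The retinal degeneration C protein TC007143, the homologue of a fly rhodopsin phosphatase, was lower, at 7.49 RPKM in the adult and 22.1 RPKM in the embryo.

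Genes known from the testis and the sperm tail were higher in the adult. Of 38 tested genes of the sperm axoneme and cilium, the microtubule motor of the sperm tail, 27 were higher in the adult and 0 were lower, with a median of 3.04 relative to all genes (27 of 36 without 2 unrelated names); none of the 27 was higher in the larva or the pupa than in the adult. Beta-2 tubulin (TC009035), whose fly homologue is the tubulin of the sperm tail, was at 919 RPKM in the adult and 0.229 RPKM in the embryo (1 read), a ratio of 4018 (721 to 158741). Tektin (TC005997), a filament of the axoneme wall, was at 91.3 RPKM in the adult and 3.51 RPKM in the embryo. A testis-specific serine kinase (TC009447) was at 304 RPKM in the adult with 0 embryo reads, at least 346-fold higher, and another (TC010125) was at 135 RPKM in the adult and 0.940 RPKM in the embryo. The radial spokehead gene TC008922 was at 38.2 RPKM in the adult and 0.177 RPKM in the embryo, and the axonemal dynein heavy chain TC007517, the motor itself, was at 13.9 RPKM in the adult and 0.0433 RPKM in the embryo.

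Markers of egg production were far weaker than those of sperm. Vitellogenin, the yolk precursor that the fat body of reproducing females makes, was close to absent: the vitellogenin genes TC010839 and TC013602 were at 0.241 and 0.422 RPKM in the adult and at 0.0574 and 0.0573 RPKM in the embryo, under the minimum for comparison. The only tested gene of 3 in the list of yolk and vitelline proteins, TC009851, is described as a putative vitellogenin. It was at 29.0 RPKM in the adult and 58.4 RPKM in the embryo, 2.01-fold lower (1.53 to 2.66). With 1 RPKM added to each level the difference was just under 2-fold, so TC009851 was not called. The vitellogenin receptor TC004042, by which oocytes take up yolk, was at 12 RPKM in the adult and 4.65 RPKM in the embryo, a ratio of 2.58 (1.5 to 4.57), with 0 reads in the larva. In the list of oogenesis and germline genes 4 of 17 were higher in the adult and 1 was lower (4 and 1 of 15 without unrelated names), with a median of 0.21 relative to all genes. Among the higher members bicaudal-C (TC005315), an RNA-binding regulator of fly oogenesis, was at 29.3 RPKM in the adult and 7.86 RPKM in the embryo, and boule (TC015063), a germline RNA-binding protein, was at 84.7 RPKM in the adult and 20.6 RPKM in the embryo. Piwi (TC008711), which binds the small RNAs that silence transposons in the germ line, was at 131 RPKM in the adult and 134 RPKM in the embryo.

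Muscle RNA was abundant in both libraries and more so in the adult. Of 17 genes matched as sarcomere genes 11 were higher and 2 were lower, with a median of 1.99 relative to all genes, and without a non-muscle light chain 1 of 16 was lower. The myosin light chain TC011769 was at 9665 RPKM in the adult and 1462 RPKM in the embryo, a ratio of 6.61 (6.40 to 6.84), and troponin T (TC000933), which ties the calcium switch to the thin filament, was at 6640.4 RPKM in the adult and 2588 RPKM in the embryo. Muscle protein 20 (TC007135) was at 1109 RPKM in the adult and 132 RPKM in the embryo, but at 1243 RPKM in the larva and 72.6 RPKM in the pupa, and troponin C type IIIa (TC012196), the calcium sensor, had the same order of stages, with 204 RPKM in the adult, 28.7 RPKM in the embryo, 268 RPKM in the larva and 16.5 RPKM in the pupa. The gene named tenebrin (TC012717) was lower, at 8.08 RPKM in the adult and 91.6 RPKM in the embryo, 11.3-fold (9.80 to 13.2). The gene TC012270, whose nearest described match is a Bla g allergen of cockroaches, was at 1353 RPKM in the adult with 0 embryo reads, at least 645-fold higher.

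Many genes of energy supply were higher in the adult. Of 79 genes of oxidative phosphorylation, the respiratory chain and ATP synthase of mitochondria, 38 were higher and 0 were lower, with a median of 1.28 relative to all genes; with median-ratio rescaling 65 were higher, and 23 had a counting interval wholly above 2-fold. ATP synthase subunit beta (TC015322) was at 1772 RPKM in the adult and 714 RPKM in the embryo, a ratio of 2.48 (2.39 to 2.58), and cytochrome c oxidase subunit 6b (TC003304) was at 1508 RPKM in the adult and 728 RPKM in the embryo. Other genes of the list differed far more. Cytochrome c oxidase subunit Va (TC009255) was at 67.5 RPKM in the adult and 2.14 RPKM in the embryo, a ratio of 31.5 (10.5 to 156), and succinate dehydrogenase subunit B (TC014418) was at 40.1 RPKM in the adult with 0 embryo reads. Of 30 genes of glycolysis and trehalose, the blood sugar of insects, 21 were higher and 1 was lower, with a median of 1.69 relative to all genes, and without 5 unrelated names 19 of 25 were higher and 0 were lower. The largest ratios of the list were 506 for the pyruvate kinase TC006543, 286 for the enolase TC011729 and 159 for the glyceraldehyde 3-phosphate dehydrogenase TC005317, each with at most 3 embryo reads, whose levels are given with the gene copies below. Aldolase (TC014998) was at 447 RPKM in the adult and 193 RPKM in the embryo, a ratio of 2.31 (2.11 to 2.53).

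Digestive enzymes were mostly higher in the adult, and most of these were higher still in the feeding larva. Of 118 tested proteases and glycosidases 69 were higher in the adult and 15 were lower, with a median of 1.63 relative to all genes, and 55 of the 69 had more RPKM in the larva than in the adult. Cathepsin L (TC011000), a gut protease of flour beetles, was at 149.7 RPKM in the adult, 0.937 RPKM in the embryo and 1231 RPKM in the larva. The aminopeptidase N-like gene TC001260, which trims peptides at the gut surface, was at 12.8 RPKM in the adult and 0.0537 RPKM in the embryo (1 read). Some relatives of these enzymes were embryonic. Carboxypeptidase A (TC005905) was at 6.10 RPKM in the adult and 334 RPKM in the embryo, 54.8-fold lower (36.7 to 85.8), and serine protease P87 (TC008659) was at 1.21 RPKM in the adult and 139 RPKM in the embryo. Both reached higher levels in the pupa, at 749 RPKM for the carboxypeptidase and 169 RPKM for the protease, with 59.2 and 15.1 RPKM in the larva.

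The peritrophic matrix is the chitin-lined sleeve that separates food from the gut wall. Of 59 tested genes matched to that matrix and to chitin turnover 35 were higher in the adult and 5 were lower, with a median of 1.84 relative to all genes. The match took in 12 cuticular proteins analogous to peritrophins, which belong to the cuticle and not to the gut, and without them 29 of 47 were higher and 4 were lower. Peritrophic matrix protein 2-B (TC003275) was at 41.1 RPKM in the adult, 0.584 RPKM in the embryo (1 read) and 1864 RPKM in the larva. Peritrophic matrix protein 5-A (TC003273) was, by contrast, highest in the adult, at 24.6 RPKM against 0.275 RPKM in the embryo and 4.25 RPKM in the larva. The chitinase TC001770 had the largest difference the other way, with 5.26 RPKM in the adult and 1125 RPKM in the embryo, 214-fold lower (146 to 328), and 929 RPKM in the pupa. Chitinases digest old cuticle at a moult as well as chitin in the gut.

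Detoxification enzymes were higher in the adult too. Of 131 tested cytochrome P450 genes, oxidases of plant toxins, insecticides and hormones, 87 were higher and 18 were lower, with a median of 2.14 relative to all genes, and 49 of the 87 were higher still in the larva. By nearest KEGG entry 33 of 43 genes of family 6, 15 of 21 of family 9 and 25 of 34 of family 4 were higher, against 2, 1 and 3 lower. The P450 TC006445 was at 1306 RPKM in the adult, 11.2 RPKM in the embryo, 2106 RPKM in the larva and 3.60 RPKM in the pupa. The P450 TC008058 was at nearly the same level in both, 461 RPKM in the adult and 429 RPKM in the embryo. Of 54 tested glutathione and glucuronosyl transferases, which attach a soluble group to a toxin, 31 were higher and 5 were lower, with a median of 1.72 relative to all genes. Glutathione S transferase E7 (TC004940) was at 423 RPKM in the adult and 11.8 RPKM in the embryo, a ratio of 35.7 (24.0 to 55.5), and E8 (TC003104) was lower, at 3.31 RPKM in the adult and 37.7 RPKM in the embryo.

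**Figure D2:**
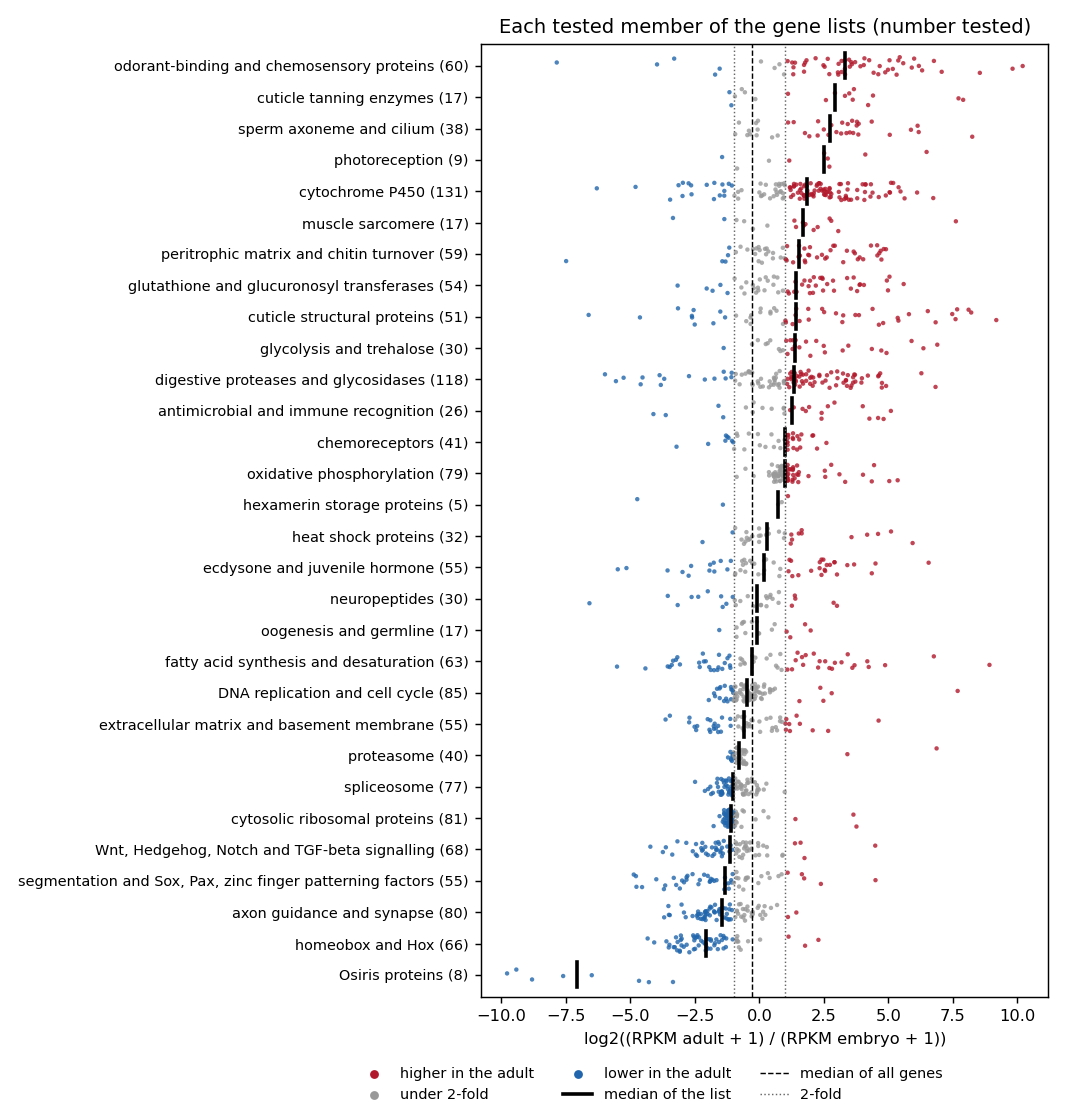
log2((RPKM adult + 1) / (RPKM embryo + 1)) of every tested member of the gene lists, as matched by words in the names, with at least 5 tested genes, 1 point a gene, the number tested in brackets and the bar at the list's median; the dashed line is the median of all genes (-0.30) and the dotted lines 2-fold. The lists run from odorant-binding and chemosensory proteins, with 51 of 60 higher, down to the 8 Osiris proteins, all of them lower.

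Cuticle genes were exchanged between the stages. Of 51 tested genes matched as structural proteins of the cuticle 29 were higher in the adult and 10 were lower, with a median of 1.71 relative to all genes; 1 of the lower genes is the signalling gene naked cuticle, which leaves 9 of 50. The cuticle protein CP6 (TC013135) was at 2230.2 RPKM in the adult and 6.51 RPKM in the embryo, a ratio of 342 (180.2 to 749.7), with 17.7 RPKM in the larva and 7.03 RPKM in the pupa. The RR-1 protein 23 (TC014499) was at 582 RPKM in the adult with 0 embryo reads. Of a pair of genes named Cuticular protein 66D, TC008767 was at 0.464 RPKM in the adult (1 read) and 143 RPKM in the embryo, with 0 reads in the larva and the pupa, and TC002908 was at 1.0 RPKM in the adult and 48.5 RPKM in the embryo, with 178 RPKM in the pupa. Cuticle structural genes form large families, and since only unique reads were counted, near-identical copies are undercounted.

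Enzymes that tan and harden the cuticle from tyrosine were much higher in the adult. Of 17 tested members 11 were higher and 2 were lower, with a median of 3.23 relative to all genes, and without 2 activation proteins that are no tanning enzymes 11 of 15 were higher and 1 was lower. Tyrosine 3-monooxygenase (TC002496), which makes DOPA, was at 360.3 RPKM in the adult and 16 RPKM in the embryo, a ratio of 22.5 (18.1 to 28.2). Aromatic-L-amino-acid decarboxylase (TC013401), which makes dopamine from DOPA, was at 483 RPKM in the adult and 1.02 RPKM in the embryo, a ratio of 472 (202 to 1455), while a second gene of that name (TC012567) was at 0.860 RPKM in the adult and 2.94 RPKM in the embryo. Arylalkylamine N-acetyltransferase (TC001154), which acetylates dopamine, was at 296 RPKM in the adult and 0.408 RPKM in the embryo (1 read). These 3 enzymes were at 54.0, 17.8 and 0.740 RPKM in the larva and at 47.1, 4.16 and 14.4 RPKM in the pupa, below their adult levels at each stage.

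The Osiris genes gave the largest differences on the side of the embryo. They encode a family of insect membrane proteins that in Drosophila lie in a cluster and are expressed in cells that secrete cuticle. All 8 listed members were lower in the adult, with a median of -6.75 relative to all genes. The osiris-like gene TC011661 was at 4.24 RPKM in the adult and 4606 RPKM in the embryo, 1088-fold lower (591 to 2269), and osiris 7 (TC011660) was at 2.71 RPKM in the adult and 2544 RPKM in the embryo, 939-fold lower (455 to 2336). TC011658 was at 5.85 RPKM in the adult and 3079 RPKM in the embryo, and TC012679 was at 4.61 RPKM in the adult and 1092 RPKM in the embryo. The other 4 members had between 0 and 0.875 RPKM in the adult and between 9.19 and 89.4 RPKM in the embryo. The members differed in the stages between: TC011661 was at 182 RPKM in the larva and 76.5 RPKM in the pupa, and TC012679 at 13.7 RPKM in the larva and 1608 RPKM in the pupa, above the embryo. The gene TC011665, whose nearest KEGG entry is lactoylglutathione lyase, as is that of TC011661, was at 4.54 RPKM in the adult and 1975 RPKM in the embryo.

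Patterning genes were lower in the adult as a group. Of 66 tested genes matched as homeobox genes, the DNA-binding regulators that include the Hox genes, 54 were lower and 3 were higher, with a median of -1.77 relative to all genes. Without 4 genes matched by name alone, among them bicaudal-C, 54 of 62 were lower and 2 were higher. The 54 still held Deformed epidermal autoregulatory factor-1 (TC000085), also matched by name alone. Prothoraxless (TC000912), the Antennapedia gene of the beetle, was at 7.26 RPKM in the adult and 73.3 RPKM in the embryo, 10.1-fold lower (7.91 to 13.1), Ultrabithorax (TC000903) was at 6.17 RPKM in the adult and 49.6 RPKM in the embryo, and maxillopedia (TC000925), which specifies mouthparts, was at 1.06 RPKM in the adult and 15.9 RPKM in the embryo. The difference was smaller for abdominal-A (TC000894), at 12.5 RPKM in the adult and 43.7 RPKM in the embryo, and smallest of the 7 Hox genes shown for labial (TC000926), a head gene, at 5.74 RPKM in the adult and 10.7 RPKM in the embryo, 1.86-fold lower (1.09 to 3.26). The segment polarity gene invected (TC016368) was at 5.24 RPKM in the adult and 125 RPKM in the embryo, 23.8-fold lower (15.2 to 39.3), and reached 229.5 RPKM in the pupa; empty spiracles (TC011763), a head gap gene in the fly, was at 2.20 RPKM in the adult and 52.9 RPKM in the embryo. The higher homeobox genes were Hex (TC004555), at 17.3 RPKM in the adult and 2.75 RPKM in the embryo, and a gene named sine oculis-related homeobox 4 (TC003852), at 8.40 RPKM in the adult and 3.29 RPKM in the embryo.

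Of 55 genes matched as other patterning factors, those of segmentation and of the Sox, Pax and zinc finger families, 34 were lower in the adult and 5 were higher, with a median of -1.03 relative to all genes. The match took in 5 paxillins, proteins of cell adhesion, and a Pax-interacting protein, and without these 34 of 49 were lower and 3 were higher. The 49 still held genes of none of these families, such as lethal giant larvae (TC015986) and argos (TC013607). Both were lower, so the count of lower genes includes some unrelated ones. The achaete-scute homolog TC008433, a proneural factor that starts the making of nerve cells, was at 0.850 RPKM in the adult and 49.3 RPKM in the embryo, 58.0-fold lower (15.7 to 485). The Olig family gene TC014712, of another family of neural factors, was at 2.45 RPKM in the adult and 100.0 RPKM in the embryo. A gene named odd-skipped (TC005783), after a pair-rule gene, was among the higher ones, at 21.7 RPKM in the adult, with 0 reads in the embryo and the larva. Another gene named odd skipped (TC005785) went the other way. It was at 0.372 RPKM in the adult (1 read) and 10.6 RPKM in the embryo, 28.5-fold lower (4.74 to 1164). In the signalling list of the Wnt, Hedgehog, Notch and TGF-beta pathways 36 of 68 matched genes were lower and 4 were higher, with a median of -0.83 relative to all genes. Without 18 unrelated genes, most of them matched by the word delta, 30 of 50 were lower and 1 was higher, with a median of -1.13 relative to all genes. Wingless (TC014084), the ligand that keeps segment borders, was at 1.09 RPKM in the adult and 20.7 RPKM in the embryo. A further Wnt ligand (TC002386, member 8A) had 0 reads in the adult and 17.7 RPKM in the embryo. A receptor gene named frizzled 4 (TC006527) was at 1.84 RPKM in the adult and 34.1 RPKM in the embryo. Another gene of that name (TC002895) was at 24.6 RPKM in the adult and 19.7 RPKM in the embryo.

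**Figure D3:**
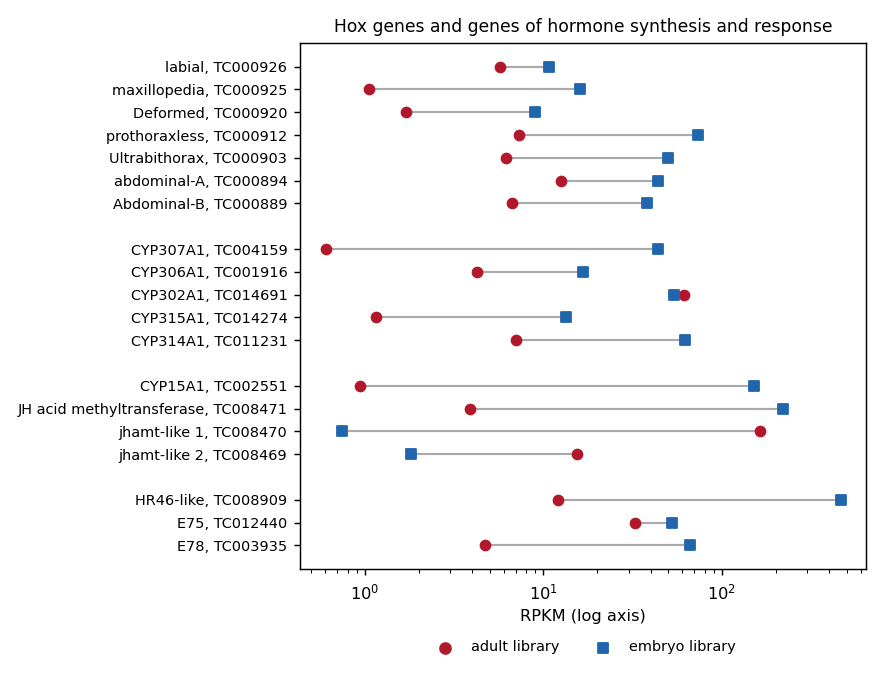
RPKM (log axis) in the adult library (circles) and the embryo library (squares) of 7 Hox genes, of P450 enzymes of ecdysteroid synthesis, of genes of juvenile hormone synthesis and of nuclear receptors, 1 row a gene. The embryo lies to the right for all 7 Hox genes, CYP302A1 is nearly equal in both libraries, and the jhamt-like genes lie to the right in the adult.

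Genes that wire the nervous system were lower in the adult as well. Of 80 genes of axon guidance and the synapse 51 were lower and 2 were higher, with a median of -1.14 relative to all genes. The nicotinic acetylcholine receptor subunit beta 1 (TC001432), part of the main excitatory receptor of insect synapses, was at 4.42 RPKM in the adult and 61.5 RPKM in the embryo, 13.9-fold lower (8.94 to 22.8), while subunit alpha 10 (TC007155) was higher, at 34.0 RPKM in the adult and 11.9 RPKM in the embryo. Syntaxin 1A (TC011694), of the machinery of transmitter release, was at 129 RPKM in the adult and 311 RPKM in the embryo. Of 55 genes matched to the extracellular matrix 21 were lower and 10 were higher, with a median of -0.28 relative to all genes. The match took in Sid-1-related genes and a nimrod-like gene, whose names are not those of matrix proteins. Of these, Sid-1-related A (TC011760) and the nimrod-like gene (TC030481) were among the higher genes, and counts without them were not made. A collagen alpha chain (TC002064) was at 2.80 RPKM in the adult and 46.3 RPKM in the embryo, 16.5-fold lower (10.8 to 26.7), and all 8 genes whose nearest KEGG entry is discoidin domain receptor 2, a collagen receptor of vertebrates, were lower.

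Machinery for making proteins was lower by a small and even step whose calls depend on the scaling. Of 81 cytosolic ribosomal proteins 60 were lower in the adult and 3 were higher, with a median of -0.81 relative to all genes (60 lower and 1 higher of 76 without unrelated names), but 4 were lower under median-ratio rescaling and 36 with the most abundant genes left out of the totals. Ribosomal protein S15Ae (TC012128) was at 2573 RPKM in the adult and 5830.4 RPKM in the embryo, 2.27-fold lower (2.17 to 2.36), and S17e (TC015910) was at 1441 RPKM in the adult and 3624 RPKM in the embryo. A gene named ribosomal protein S6 (TC001281) differed from the rest, with 29.9 RPKM in the adult and 1.27 RPKM in the embryo. Of 77 spliceosome genes, which remove introns, 40 were lower and 0 were higher, with a median of -0.72 relative to all genes, and 20 were lower under the rescaling. Splicing factor 7 (TC010640) was at 61.7 RPKM in the adult and 270.3 RPKM in the embryo, 4.38-fold lower (3.58 to 5.40). Of 40 tested proteasome genes 9 were lower and 2 were higher, with a median of -0.48 relative to all genes, and with the rescaling 0 were lower.

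Of 85 genes of DNA replication and the cell cycle 16 were lower in the adult and 5 were higher, with a median of -0.16 relative to all genes, and 8 were lower under the rescaling. The cohesin subunit SMC1A (TC005672), which holds sister chromatids together, was at 104 RPKM in the adult and 298 RPKM in the embryo, 2.87-fold lower (2.69 to 3.07). Cyclin A (TC005609), which drives entry into division, was higher, at 79.1 RPKM in the adult and 10.5 RPKM in the embryo, a ratio of 7.56 (5.34 to 11). The phosphatase CDC14 homolog TC008603 was at 255 RPKM in the adult and 0.241 RPKM in the embryo (1 read).

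Hormone genes lay on both sides. Ecdysone, the steroid that triggers moults, is made by a chain of P450 enzymes, and juvenile hormone, which holds back metamorphosis and supports adult reproduction, is finished by a methyltransferase and the P450 CYP15A1. Of 55 tested genes matched to these hormones 23 were higher in the adult and 13 were lower, with a median of 0.49 relative to all genes. Without 11 genes of other hormones and their receptors 20 of 44 were higher and 10 were lower. CYP307A1 and CYP15A1, both given below as lower in the adult, are not in this list. Several of the higher genes are named only juvenile hormone-inducible protein. One of them (TC009659) was at 41.7 RPKM in the adult and 1.08 RPKM in the embryo, while another gene of that name (TC008102) was lower. The ecdysteroid enzymes were chosen for display after their values were seen. CYP307A1 (TC004159) was at 0.605 RPKM in the adult (3 reads) and 43.7 RPKM in the embryo, 72.3-fold lower (24.4 to 353), CYP314A1 (TC011231), which makes the active 20-hydroxyecdysone, was at 7.0 RPKM in the adult and 62.1 RPKM in the embryo, and CYP315A1 (TC014274) was at 1.16 RPKM in the adult and 13.4 RPKM in the embryo. CYP302A1 (TC014691) had about equal levels, 61.2 RPKM in the adult and 53.7 RPKM in the embryo, a ratio of 1.14 (0.970 to 1.34). The hormone receptor HR46 (TC008909), a nuclear receptor of the ecdysone cascade, was at 12 RPKM in the adult and 462 RPKM in the embryo, 38.5-fold lower (29.7 to 50.7), and stood at 323 RPKM in the pupa. By contrast, the hormone receptor HR38 (TC013146) was at 49.3 RPKM in the adult and 5.65 RPKM in the embryo, a ratio of 8.72 (6.29 to 12.4).

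In the juvenile hormone branch CYP15A1 (TC002551) was at 0.934 RPKM in the adult and 152 RPKM in the embryo, 162-fold lower (69.3 to 501). Juvenile hormone acid methyltransferase (TC008471) was at 3.89 RPKM in the adult and 218 RPKM in the embryo, 56.2-fold lower (30.4 to 118). Its relatives went the other way: jhamt-like 1 (TC008470) was at 164 RPKM in the adult and 0.745 RPKM in the embryo, a ratio of 220.2 (60.6 to 1825), and jhamt-like 2 (TC008469) was at 15.3 RPKM in the adult and 1.82 RPKM in the embryo. What the relatives methylate is not known from these data. Juvenile hormone epoxide hydrolase (TC003438), which breaks the hormone down, was at 41.8 RPKM in the adult and 0.890 RPKM in the embryo, and at 56.7 RPKM in the larva. A gene named juvenile hormone esterase (TC014795) had about equal levels, 66.2 RPKM in the adult and 67.9 RPKM in the embryo.

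Neuropeptides and their receptors differed both ways, with 5 of 30 matched genes higher in the adult and 10 lower and a median of 0.21 relative to all genes, and without 4 growth factor and insulin receptors with 5 of 26 higher and 9 lower and a median of -0.043. Of the hormones of moulting, bursicon (TC013832), which hardens new cuticle, and ecdysis triggering hormone (TC009466) were lower in the adult: bursicon had 0 reads in the adult and 10.7 RPKM in the embryo, and ecdysis triggering hormone was at 2.75 RPKM in the adult and 11.8 RPKM in the embryo, 4.28-fold lower (1.41 to 17.4). The eclosion hormone-like gene TC000178, of another trigger of ecdysis, was higher, at 29.6 RPKM in the adult and 4.22 RPKM in the embryo (3 reads), a ratio of 7.01 (2.08 to 36.8), and eclosion hormone (TC030006) was at 4.05 RPKM in the adult (3 reads) with 0 embryo reads. Short neuropeptide F (TC030021), a feeding-related peptide in insects, was at 206 RPKM in the adult and 27.2 RPKM in the embryo, a ratio of 7.59 (5.06 to 11.8). An insulin-like peptide (TC008479) was at 12.8 RPKM in the adult and 0.718 RPKM in the embryo (1 read).

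Defence genes were higher in the adult but mostly not at their peak there. Of 26 tested genes matched to immune recognition and antimicrobial peptides 14 were higher and 4 were lower, with a median of 1.57 relative to all genes. Without 6 thioesterases, set aside as unrelated names, 14 of 20 were higher and 2 were lower, and 13 of the 14 were higher still in the larva. The thaumatin-like gene TC000517, of a family named after plant antifungal proteins, was at 106 RPKM in the adult and 2.11 RPKM in the embryo, a ratio of 50.0 (21.1 to 156), with 114 RPKM in the larva. Lysozyme C (TC010352), which cuts bacterial walls, was at 27.2 RPKM in the adult with 0 embryo reads and at 321 RPKM in the larva. The C-type lectin TC010419, a sugar-binding protein, was lower, at 77.3 RPKM in the adult and 968 RPKM in the embryo, 12.5-fold (10.6 to 14.8).

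Hexamerins, the storage proteins that larvae lay up for metamorphosis, served as a check on the stages. Of 5 tested members 1 was higher in the adult and 2 were lower, with a median of 1.03 relative to all genes; before that adjustment the median was 0.73 and the mean -0.69. Hexamerin 1B (TC005377) was at 19.2 RPKM in the adult and 11.2 RPKM in the embryo, against 20318 RPKM in the larva. Hexamerin 4 (TC005375) was at 4.92 RPKM in the adult and 157 RPKM in the embryo, 31.8-fold lower (22.4 to 46.7). The markers of eye and testis, the odorant carriers and the patterning genes thus lay on the side of their labels. Replication genes, also set as embryo markers, did not stand out, with 16 of 85 (18.8%) lower in the adult against 25.5% over all genes. The chemoreceptors, weakly expressed in whole bodies, changed direction with the filter. The vitellogenin genes TC010839 and TC013602 were near 0 in both libraries, but the putative vitellogenin TC009851 was not. Flightin, a flight muscle marker, was not analysed here. Of 32 heat shock genes, chaperones that fold proteins, 11 were higher and 2 were lower, with a median of 0.60 relative to all genes, but the unadjusted median of 0.29 changed to -0.01 at a minimum of 5 RPKM. The most abundant of them, TC002089, a 70 kDa heat shock protein, was at 664 RPKM in the adult and 965 RPKM in the embryo, and another gene of the same nearest KEGG entry (TC002822) was at 38.9 RPKM in the adult and 0.160 RPKM in the embryo (1 read).

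Fatty acid genes were divided, with 23 of 63 higher in the adult and 26 lower and a median of 0.03 relative to all genes; before that adjustment the median was -0.27 and the mean 0.14. Under median-ratio rescaling 26 fatty acid genes were higher and 22 lower. Among them the fatty acid synthase TC007689, which builds the chains, was at 1273 RPKM in the adult and 1.63 RPKM in the embryo, a ratio of 783 (551 to 1152), with 15.2 RPKM in the larva and 2.22 RPKM in the pupa. A second synthase, TC008915, was at 169.5 RPKM in the adult and 0.568 RPKM in the embryo, and the synthase TC015399, was at 3.44 RPKM in the adult and 48.4 RPKM in the embryo, 14.1-fold lower (11 to 18.2). Fatty acyl-CoA reductases, which make the alcohols of surface waxes, leaned to the embryo with 13 of 25 lower and 8 higher. The reductase TC015380 was at 47.2 RPKM in the adult and 406 RPKM in the embryo, 8.61-fold lower (7.46 to 9.97).

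That pattern of unlike copies was searched for over all names. Of 812 informative names carried by at least 2 tested genes, 31 had a gene higher and another lower in the adult by 4-fold or more each. The widest gap was between the sulfotransferases, which add sulfate to small molecules: TC013550 was at 571 RPKM in the adult and 3.82 RPKM in the embryo, a ratio of 149.6 (85.4 to 290.2), and TC012015 was at 2.01 RPKM in the adult and 446 RPKM in the embryo, 222-fold lower (102 to 606). Of the chitinases, TC009627 was at 27.3 RPKM in the adult with 0 embryo reads, beside the embryonic TC001770 above. Carbonic anhydrase, which hydrates carbon dioxide, had TC000976 at 114 RPKM in the adult with 0 embryo reads and TC007197 at 5.33 RPKM in the adult and 42.9 RPKM in the embryo. Of the alcohol dehydrogenases, TC009520 was at 79.7 RPKM in the adult and 2.51 RPKM in the embryo, and TC015712 at 1.04 RPKM in the adult and 72.8 RPKM in the embryo.

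**Figure D4:**
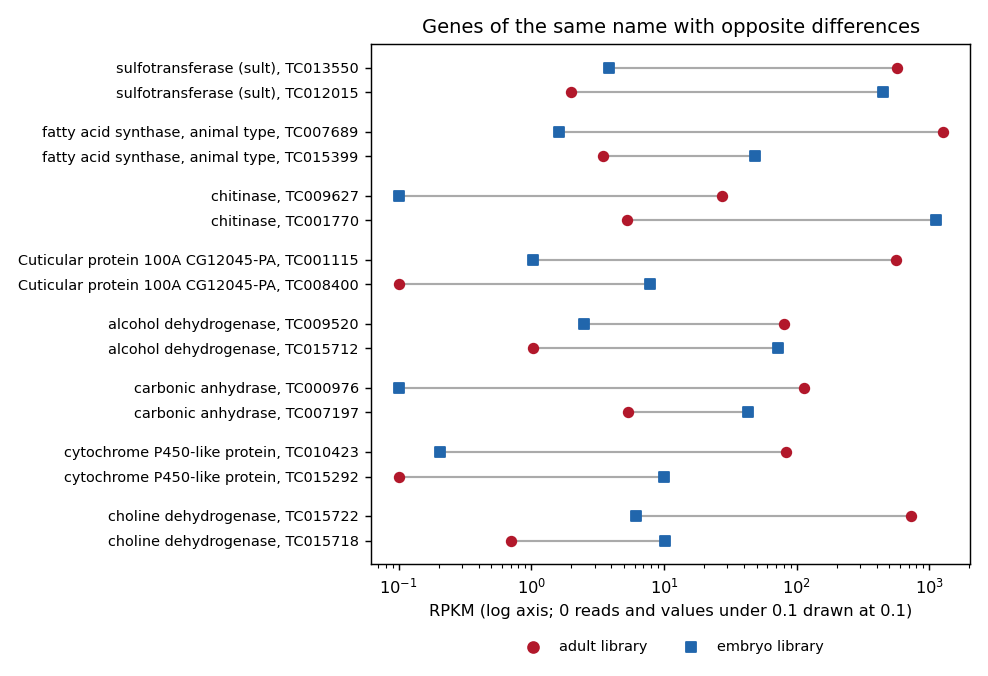
RPKM (log axis) in the adult library (circles) and the embryo library (squares) of the 8 pairs of genes with the same name and the widest opposite differences, 1 row a gene. In each pair the upper gene is higher in the adult and the lower gene is higher in the embryo.

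A further set of copies was found by a rule chosen after the values were seen, and is a description only. In 563 KEGG groups with at least 2 tested genes and a copy at 50 RPKM or more in the embryo, 146 genes of 86 groups were under 1 RPKM in the embryo and at 10 RPKM or more in the adult, and 57 of them had 0 embryo reads. The opposite pattern, a copy under 1 RPKM in the adult and at 10 RPKM or more in the embryo, was found for 4 genes. Over all genes the skew lay the same way. At 10 RPKM or more, 355 adult genes had 0 embryo reads and 47 embryo genes had 0 adult reads. Whether copies differ from other genes in this was not tested. Of the 146, 53 lay in groups of at most 4 genes. The enzymes of metabolism named here are examples picked for their known roles. The arginine kinase-like gene TC002600, of the enzyme that buffers ATP in muscle and sperm of insects, was at 304 RPKM in the adult and 0.552 RPKM in the embryo (2 reads), a ratio of 551 (152 to 4555), beside a copy (TC013596) at 1071 RPKM in the adult and 689 RPKM in the embryo. The enolase TC011729 was at 203 RPKM in the adult and 0.710 RPKM in the embryo, beside TC012754 at 189 RPKM in the adult and 100.1 RPKM in the embryo. The pyruvate kinase TC006543 was at 96.9 RPKM in the adult and 0.192 RPKM in the embryo (1 read), and the glyceraldehyde 3-phosphate dehydrogenase TC005317 was at 94.0 RPKM in the adult and 0.590 RPKM in the embryo, beside TC006170 at 619 RPKM in the adult and 495 RPKM in the embryo. The citrate synthase TC014588 was at 133.5 RPKM in the adult with 0 embryo reads, and the protein disulfide isomerase TC000074, which forms disulfide bonds in secreted proteins, was at 219.9 RPKM in the adult with 0 embryo reads.

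The larval and pupal levels of these copies were not used to choose them. The choice for a high adult level by itself favours a lower level in the other libraries, so the pupal share is a description only. Of the 53, 42 (79.2%) were under 1 RPKM in the larva, and 52 were lower in the pupa than in the adult, with a median pupal level of 9.28% of the adult level and quartiles of 7.10% and 12.6%. Over all 734 genes under 1 RPKM in the embryo and at 10 RPKM or more in the adult, 438 (59.7%) were under 1 RPKM in the larva, and the median pupal level was 7.50% of the adult level. For the 12 such genes of the sperm axoneme list, 11 were under 1 RPKM in the larva and the median pupal level was 11.4%. For the 20 such digestive genes 2 were under 1 RPKM in the larva, and the median pupal level was 1.30% of the adult level. For the 19 such P450 genes 3 were under 1 RPKM in the larva and the median pupal level was 12%, and for the 22 such odorant-binding and chemosensory genes 12 were under 1 RPKM in the larva and the median pupal level was 0%.

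**Figure D5:**
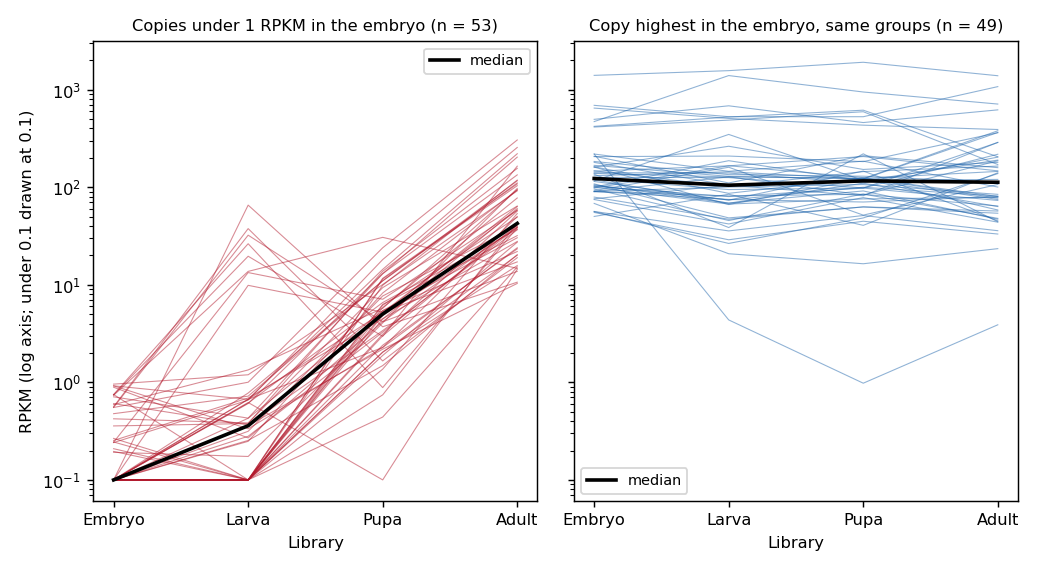
RPKM (log axis) in the embryo, larval, pupal and adult libraries of the 53 copies under 1 RPKM in the embryo (left) and of the copy highest in the embryo in each of their 49 groups (right), 1 line a gene and the thick line at the median. On the left the median stays under 1 RPKM in the larva and climbs through the pupa to the adult, and on the right it is nearly level over the 4 stages.

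The deposited GO and KEGG columns gave the same genes another grouping. Medians of GO terms are given unadjusted, not relative to the median of all genes. Of GO terms with at least 20 tested genes, transmembrane transporter activity had the highest median, 2.06, with 24 of 33 genes higher in the adult and 1 lower, followed by iron ion binding, with 59 of 103 higher and 12 lower. The lowest median was that of salivary gland development, -1.74, with 14 of 21 lower and 0 higher, and axon guidance had 15 of 24 lower and 0 higher. DNA binding, the largest of the low terms, had 100 of 189 genes lower and 13 higher. By KEGG entry, 7 of 8 carboxylesterases, 7 of 9 ABC transporters of subfamily A and 18 of 23 transporters of the SLC17 family were higher and 0 of each were lower. Of 121 genes whose nearest entry is the vertebrate KRAB zinc finger, a class of DNA-binding proteins, 53 were lower and 1 was higher.

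The genes at the top of each end included several with no known role here. Genes described as ADFb like proteins were at 3758 RPKM in the adult and 0.750 RPKM in the embryo (TC009959, 1 read) and at 2162 RPKM in the adult and 3.51 RPKM in the embryo (TC009955). The kelch-like protein 10 gene TC012547, whose mouse homologue is needed for sperm maturation, was at 208 RPKM in the adult and 0.153 RPKM in the embryo (1 read), a ratio of 1359 (244 to 53729.8). Cytosol aminopeptidase (TC004000), a peptide-trimming enzyme, was at 626 RPKM in the adult and 0.768 RPKM in the embryo. On the embryo side xanthine dehydrogenase (TC001977), of purine breakdown, was at 0.684 RPKM in the adult and 69.2 RPKM in the embryo, 101-fold lower (51.1 to 235). A gene named G-protein coupled receptor (TC011656), a member of the neuropeptide list above, was at 2.32 RPKM in the adult and 318 RPKM in the embryo. Genes with no informative name were as far apart. TC001049 was at 9319.9 RPKM in the adult and 4.83 RPKM in the embryo, and TC008231 was at 888 RPKM in the adult and 0.138 RPKM in the embryo (1 read), a ratio of 6419 (1152 to 253578). TC014878 was at 0.882 RPKM in the adult and 657 RPKM in the embryo, 745-fold lower (206 to 6159.6), and TC002837 was at 1.89 RPKM in the adult and 711 RPKM in the embryo.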

How the data were processed

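The authors deposited, per the file headers, unique read counts per gene model and RPKM values for 1 whole-body RNA library a stage. Per the labels' protocols, polyadenylated RNA was selected with oligo(dT) and primed with random hexamers for an Illumina Genome Analyzer. No strand-marking step is described, so antisense reads cannot be told apart. CASAVA 1.8.2, BSMAP 2.73 and SAMtools 0.1.19 are listed in the submitters' processing notes. The RNA aligner, counter and genome build (not given in the sources used here) are unknown. Each file lists the genes that have reads, and any other gene was set to 0 reads. Recomputed RPKM matched the deposited values.

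Adult and embryo were compared on RPKM with a pseudocount of 1, in Python 3.11.15 with scipy 1.17.1, and tested on simulated data. "Tested" genes are those past the filter of 1 RPKM in either library. Names come from the deposited nr description, or else from the first KEGG entry at an E value of 1e-30 or less, and are nearest matches that may be wrong: 7450 tested genes had one. The 31 gene lists match words in these names. Members and lists were chosen with earlier results of these data known. Named genes were the 3 largest ratios in each direction and the 2 most abundant members of each list, the 15 largest named ratios in each direction with at most 3 a list, the 8 most abundant genes in each library, the 5 largest unnamed ratios in each direction and the 8 widest opposite pairs. Shown outside that rule, and chosen after their values were seen, were all Hox genes and invected, tektin, arrestin 1, the c-opsin, the kinase TC010125, the vitellogenin genes, tyrosine 3-monooxygenase, lysozyme C, bursicon, ecdysis triggering hormone, the eclosion hormone genes, jhamt-like 2, the ecdysteroid P450 genes other than CYP307A1, and the copies within KEGG groups. Genes shown as contrasts were also chosen outside the rule after their values were seen, such as odd skipped (TC005785) and the hormone receptor TC013146. The frizzled gene TC002895, juvenile hormone esterase (TC014795) and the juvenile hormone-inducible gene TC008102 were further such contrasts. Alternatives were the pseudocount, the filter, the scaling, interval-based calls and lists without unrelated names.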

Additional observations from a re-analysis of the deposited data

How the results depend on the processing

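No paired analysis was possible because the labels carry no replicate numbers and each stage has 1 library, and for that reason no library could be left out. Median-ratio rescaling left 2114 genes lower. It gave 65 genes of oxidative phosphorylation higher with an unadjusted median of 1.35. It left 8 replication genes lower (unadjusted median -0.13), 4 ribosomal (-0.74), 20 spliceosome (-0.66) and 0 proteasome genes (-0.41). The rescaling shifts nearly all genes alike: the unadjusted medians of oogenesis genes and neuropeptides became 0.27 and 0.20, while relative to all genes they were 0.21 and 0.14, positive as with the deposited totals. With the 20 most abundant genes left out of the totals, 36 ribosomal genes (unadjusted median -0.97) and 1 proteasome gene were lower. The unadjusted median of oxidative phosphorylation was then 1.12. Those of oogenesis genes and neuropeptides were 0.046 and 0.020 unadjusted, and 0.21 and 0.18 relative to all genes. A filter of 5 RPKM left 43 digestive genes higher (median 1.82) and 2 chemoreceptors (median turned to -1.15), gave P450 genes a median of 2.38, and gave unadjusted medians of -0.01 for heat shock genes and 0.065 for neuropeptides. A pseudocount of 0.1 RPKM moved medians to 3.84 for axoneme, 2.30 for digestive, 4.43 for odorant-binding, 1.78 for chemoreceptor, 2.95 for P450 and -2.51 for homeobox genes. With only genes whose counting interval lay wholly beyond 2-fold, 1759 genes were lower; 2 oogenesis, 5 chemoreceptor, 23 oxidative phosphorylation and 7 heat shock genes were higher, and 10 replication, 23 spliceosome, 6 neuropeptide and 0 proteasome genes were lower. Apart from these values the counts in each list's main direction stayed within 1.5 times and the medians within their lists' own order-statistic intervals. In the other direction the rescaling left 4 chemoreceptors, 2 peritrophic, 1 muscle, 1 heat shock and 0 tanning genes lower. It gave 3 hexamerins and 1 spliceosome gene higher. Leaving out unrelated names, chosen after seeing the data, moved none of the 15 lists it touched past those limits. Under the rescaling no called ratio of a named gene changed direction, and 122 of the 306 ratios with reads in both libraries moved out of their counting interval. Genes with 1 to 3 reads in a library have wide intervals, and a count of 0 reads is a limit of depth, not absence.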
